A study of Danio rerio with 9 samples.

Results

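The contacts described here were called in zebrafish caudal fins at 1 day post amputation (dpa) and had no counterpart in the lists of uninjured fins (0 dpa) or of fins at 4 dpa. They were chosen from the lists themselves: a pair of 10 kb bins in the 1 dpa list qualified if its bin starts lay at most 200 kb apart and if neither other list held a pair on the same chromosome with both anchor starts within 10 kb. This rule found 1065 contacts among the 15530 pairs of at most 200 kb in the 1 dpa list, or 6.86%, and among 74121 called pairs in all 3 lists. The same rule turned on the other lists found 4368 of 24348 pairs only at 0 dpa (17.9%) and 3118 of 21367 only at 4 dpa (14.6%). The 1 dpa list is the shortest, so its pairs were matched against longer lists, and these shares do not allow for that. With the 0 and 4 dpa lists cut to the 1 dpa length, 1505 contacts (9.69%) qualified.

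All fins came from adult wild type fish of the outbred Ekkwill strain, which per the labels were freshly amputated at 0 dpa or left to regenerate for 1 or 4 days. Samples were pools, each made from 10 fins, and 3 pools were taken at each time. A pool mixes all cell types of the clip, so a contact made in more cells and a contact made by cells that became more numerous cannot be told apart. The lists carry contacts alone, so the tissue could not be checked against marker genes. They give 1 value per time point, so no spread between pools, SD or test between times could be had. A pair that is not listed has no value.

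HiCAR joins open chromatin, tagged by the Tn5 transposase, to DNA that lies close to it in the nucleus. Short-range contacts of this kind include those between promoters and enhancers, the elements that set where and when a gene is transcribed. After amputation of a zebrafish fin, epidermis first closes the wound, and a blastema of proliferating cells then forms beneath it and rebuilds bone, vessels and connective tissue. The early list thus samples the wound phase and the late list the outgrowth phase.

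The contacts called only at 1 dpa were mostly short. Their median span was 30 kb (95% interval 30 to 30), against 70 kb (70 to 70) for the 12544 contacts of the same list with a counterpart at both 0 and 4 dpa. All 15530 pairs of at most 200 kb in the 1 dpa list had a median of 60 kb. The short span depended on the rule. With identical bins required, the contacts called only at 1 dpa had a median span of 60 kb. A span of 20 kb, the minimum in each list, was found in 467 of the contacts called only at 1 dpa (43.8%, interval 40.8 to 46.9). It was found in 14.3% of the contacts with both counterparts and in 19.0% of the whole 1 dpa list to 200 kb. Of the contacts called only at 1 dpa, a further 216 spanned 30 to 50 kb, 181 spanned 60 to 100 kb and 201 spanned 110 to 200 kb. No listed pair spans less than 20 kb, so a 20 kb contact has fewer possible counterparts. This was not allowed for. All intervals here cover counting error at the 95% level and treat called pairs as independent, which neighbouring pairs are not.

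The high share of 20 kb spans was also found in one neighbouring set and in part in the other. Of the 1225 contacts at 1 dpa with a counterpart at 0 dpa alone, 40.2% spanned 20 kb (37.4 to 43.0). Of the 696 with a counterpart at 4 dpa alone, 28.2% did (24.8 to 31.7), and their median span was 70 kb (60 to 80). Contacts only at 0 dpa had a median span of 20 kb (20 to 30) and those only at 4 dpa one of 70 kb (60 to 70). A span of 20 kb was found in 51.1% of those only at 0 dpa and in 29.4% of those only at 4 dpa.

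**Figure D1:**
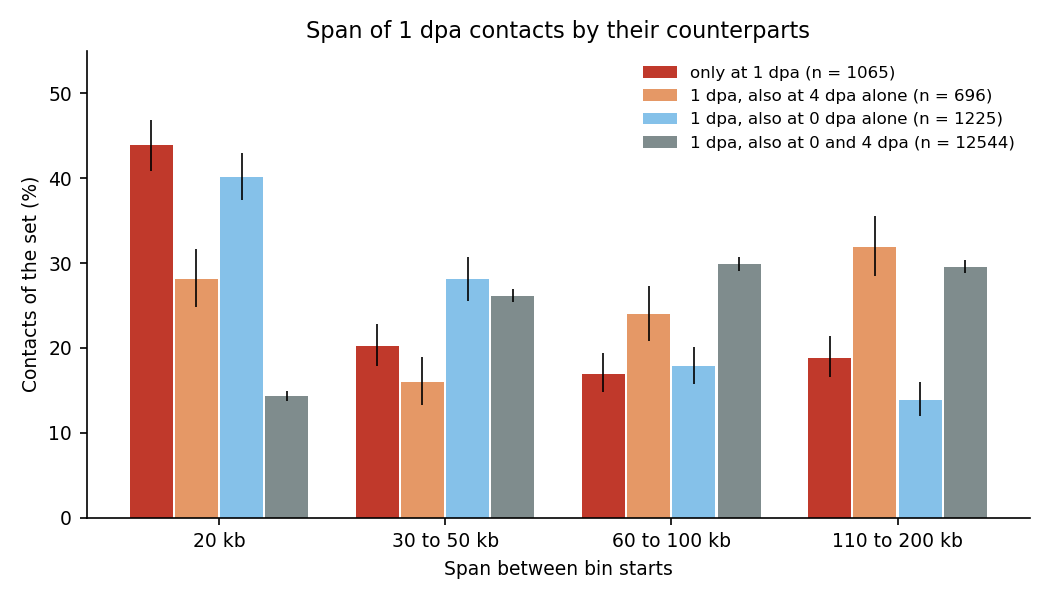
Share of contacts in each span class (bars, in percent of the set; lines, exact binomial 95% intervals) for the 4 sets of 1 dpa contacts. In the 20 kb class the contacts called only at 1 dpa stand at 43.8% and those also called at 0 and 4 dpa at 14.3%.

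At like spans the contacts had fewer counts than contacts with both counterparts. At 20 kb the median count was 36 (35 to 37), against 44 (44 to 45), and at 30 to 50 kb it was 28.5 (28 to 30), against 35 (34 to 35). At 60 to 100 kb it was 23 (22 to 24), against 27 (26 to 27), and at 110 to 200 kb 18 (17 to 18), against 20 (20 to 21). Over all spans both sets had a median of 29, since short pairs hold more counts and made up more of the contacts called only at 1 dpa. The expected count, given by the authors' background model, ran the same way. Its median was 12.5 at 20 kb, against 14.8, and 3.94 (3.76 to 4.13) at 110 to 200 kb, against 4.13 (4.08 to 4.17). Over all spans it was 8.86, against 6.93. The ratio of observed over expected counts, called strength from here on, was 3.23 (3.15 to 3.31), against 3.91 (3.88 to 3.93). This gap was smaller at like spans: at 20 kb the median strength was 2.92 (2.87 to 2.96), against 3 (2.96 to 3.06). At 110 to 200 kb it was 4.42 (4.27 to 4.57), against 4.86 (4.81 to 4.93). Contacts with a counterpart at 4 dpa alone had median counts of 37, 31, 23 and 18 in these span classes. Those with one at 0 dpa alone had 40, 31, 23 and 19. Their median strengths were, in turn, 2.88 and 2.76 at 20 kb, and 3.60 and 3.12 over all spans. Lower counts and strength than in contacts with both counterparts were thus not particular to contacts called only at 1 dpa. The lists chose the contacts called only at 1 dpa by whether they passed the calling limits, so their strength is a description and not a finding.

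Most of the contacts stood alone. The authors marked 567 as singletons (53.2%, 50.2 to 56.3), pairs with no called neighbour, against 10.8% of contacts with both counterparts. The share was 36.6% for contacts also called at 4 dpa alone and 35.6% for those also called at 0 dpa alone. Singletons were listed only at a false discovery rate (FDR) of at most 0.0001. Of the other 498, 406 (81.5%) had an FDR above that limit and would not have been listed without a called neighbour. Only 6 contacts belonged to a broad cluster, or 0.563% (0.207 to 1.22), against 24.0% with both counterparts. The share in broad clusters was 2.44% for contacts also called at 4 dpa alone and 4.82% for those also called at 0 dpa alone.

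The 498 clustered contacts lay in 284 clusters. In 182 of these clusters every called pair lacked a counterpart at the other times. These clusters held 378 of the contacts, or 75.9% (71.9 to 79.6) of the clustered ones. A singleton called only at 1 dpa is such a cluster by the rule itself. With the singletons counted, 88.7% (86.7 to 90.6) belonged to clusters seen at 1 dpa alone. The remaining 120 were part of a cluster with at least 1 pair that was also called at 0 or 4 dpa, and 28 of them were its summit.

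At the edge of the rule, 348 contacts had their nearest called pair at another time 20 kb away, just outside the limit of 10 kb. Their median count was 28 and their median strength 3.34, with a median FDR of 7.35e-05. The 1871 contacts of the 1 dpa list whose nearest pair lay 10 kb away, just inside it, had a median count of 22, a strength of 3.36 and an FDR of 0.00120. At the span limit, the 13 contacts of 200 kb had a median strength of 5.01, and the 10 pairs of 210 kb that were called only at 1 dpa had one of 5.08.

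The distance to the nearest contact of uninjured fins varied. For each contact the nearest pair of the 0 dpa list was taken by the larger of the shifts of both anchors. This shift was 20 kb for 270 contacts (25.4%, 22.8 to 28.1), 30 to 50 kb for 318 (29.9%) and 60 to 100 kb for 218 (20.5%). It was over 100 kb for 259 (24.3%, 21.8 to 27.0). At 4 dpa the 4 classes held 245, 274, 231 and 315 contacts. The nearest pair of either list lay over 100 kb away for 191 contacts (17.9%, 15.7 to 20.4). Other sets were not measured in this way, and the 0 dpa list is the longest. No closeness particular to these contacts was thus shown.

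**Figure D2:**
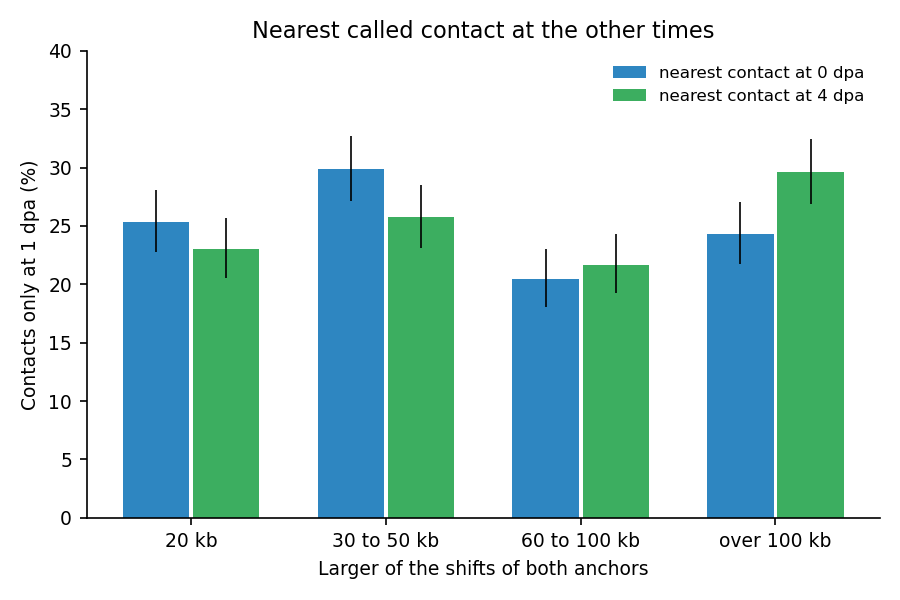
Share of the 1065 contacts by the distance of the nearest called pair at 0 dpa and at 4 dpa (bars, in percent; lines, exact binomial 95% intervals). Shifts under 20 kb are missing by the rule. The class over 100 kb holds 24.3% for 0 dpa and 29.6% for 4 dpa.

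Some contacts shared about 1 anchor with a listed pair of another time. At 0 dpa, 377 of the contacts (35.4%, 32.5 to 38.4) had a called pair with 1 anchor within 10 kb and the other 20 to 50 kb away. The neighbouring 0 dpa pair was longer alone for 191 of them, shorter alone for 120, and both kinds existed for 66. At 4 dpa there were 375 such contacts (35.2%), with 203 longer alone, 115 shorter alone and 57 of both kinds. For 309 contacts such a pair existed at both times, and 622 (58.4%, 55.4 to 61.4) had it at neither. No other set was counted in this way, and whether any anchor moved was not tested.

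The anchor bins themselves were often without any called contact at the other times. Among the 1065 contacts, 406 (38.1%, 35.2 to 41.1) had neither anchor bin in use at 0 or 4 dpa, 361 had 1 and 298 (28.0%, 25.3 to 30.8) had both. The last group is made of bins that other times also used, joined here to a different partner. Contacts only at 0 dpa had both bins in use at the other times in 21.7% (20.5 to 23.0) and those only at 4 dpa in 18.7% (17.3 to 20.1). Neither bin was in use at the other times for 42.3% (40.8 to 43.8) of contacts only at 0 dpa. For those only at 4 dpa this share was 42.8% (41.0 to 44.5), so unused bins were not particular to 1 dpa. The lists differ in length: 29134 anchor bins were in use at 0 dpa, 20969 at 1 dpa and 28039 at 4 dpa, so a 1 dpa anchor meets longer lists on the other side. The shares above do not allow for this. With the 0 and 4 dpa lists cut to the 1 dpa length, 1505 contacts qualified, and 25.7% of these (23.5 to 28.0) had both bins in use.

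Counted once each, the contacts used 1920 anchor bins. Of these, 701 were in use at 0 dpa, 692 at 4 dpa and 1079 at neither time. Bins of other sets were not counted in this way, so no excess of unused bins was shown. The mean number of called partners of the 1920 bins was 1.05 at 0 dpa, 1.90 at 1 dpa and 1.03 at 4 dpa. Since every bin had to hold at least 1 contact at 1 dpa, the higher value there is fixed by the choice. Within the 1 dpa list, both anchors had a further contact for 208 of the contacts (19.5%, 17.2 to 22.0), against 52.0% (51.1 to 52.9) of those with both counterparts. Neither anchor had one for 395 (37.1%), against 8.25%. Of contacts with a counterpart at 4 dpa alone, both anchors had one in 22.6% (19.5 to 25.8) and neither in 26.7%. With a counterpart at 0 dpa alone these shares were 30.5% (28.0 to 33.2) and 24.7%. Sparse anchors were thus in part shared with these sets.

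What a missing call can hide was worked out from the lists. In each of the 3 lists no singleton had a called neighbour within 1 bin and every clustered pair had one. A contact of the 1 dpa list with no counterpart could therefore have been listed at another time only with a called neighbour or under the stricter limit for singletons. For each contact, the expected count at 0 or 4 dpa was set from its own by the median ratio of shared pairs of like span. These ratios lay between 1.04 and 1.05 for 0 dpa, and between 1.22 and 1.34 for 4 dpa. The lowest count among singletons of that list within 5% of this expected count then gave the lowest listed strength.

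Most contacts were little stronger than pairs that the other lists were able to list. Their median lowest listed strength was 3.07 at 0 dpa and 2.82 at 4 dpa. Taking for each contact the list that it cleared by less, the strength at 1 dpa was 1.07 times the lowest listed one by the median, with quartiles of 0.958 and 1.13. The ratio to 0 dpa alone had the same median, quartiles and highest value. For 4 dpa alone the median ratio was 1.16, with quartiles of 1.03 and 1.22. By the list cleared by less, the strength at 1 dpa was below the lowest listed one for 362 contacts and at or above it for 703 (66.0%). In all, 116 contacts (10.9%, 9.08 to 12.9) were at least 1.2 times as strong, 65 (6.10%, 4.74 to 7.71) at least 1.25 times and 4 (0.376%, 0.102 to 0.959) at least 1.5 times. None reached 2 times. Among contacts with both counterparts, 40.6%, 35.4% and 19.0% passed the limits of 1.2, 1.25 and 1.5. Contacts only at 0 dpa, set against the other 2 lists in the same way, passed the limit of 1.2 in 7.19% (6.44 to 8.00) and those only at 4 dpa in 2.34% (1.84 to 2.93). At the limit of 1.25 these shares were 4.26% (3.68 to 4.90) and 1.48% (1.08 to 1.96). Below the lowest listed strength lay 34.0% of contacts only at 1 dpa, 48.3% only at 0 dpa and 79.3% only at 4 dpa. So did 30.1% (29.3 to 30.9) of the 1 dpa contacts with both counterparts. The level is that of singletons, and clustered pairs can be listed below it. Expected counts at 4 dpa were 1.22 to 1.34 times those at 1 dpa, and the lowest listed strength was read at the rescaled expected count. The shares of the 3 sets are therefore not like for like. The measure and its limits were chosen after the lists were seen, and the number of contacts passed depends on the limit. The lists thus place the 1 dpa strength at least 1.5 times above the lowest listed one for 4 of the 1065 contacts, and the change of the others may be smaller or larger than these ratios.

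**Figure D3:**
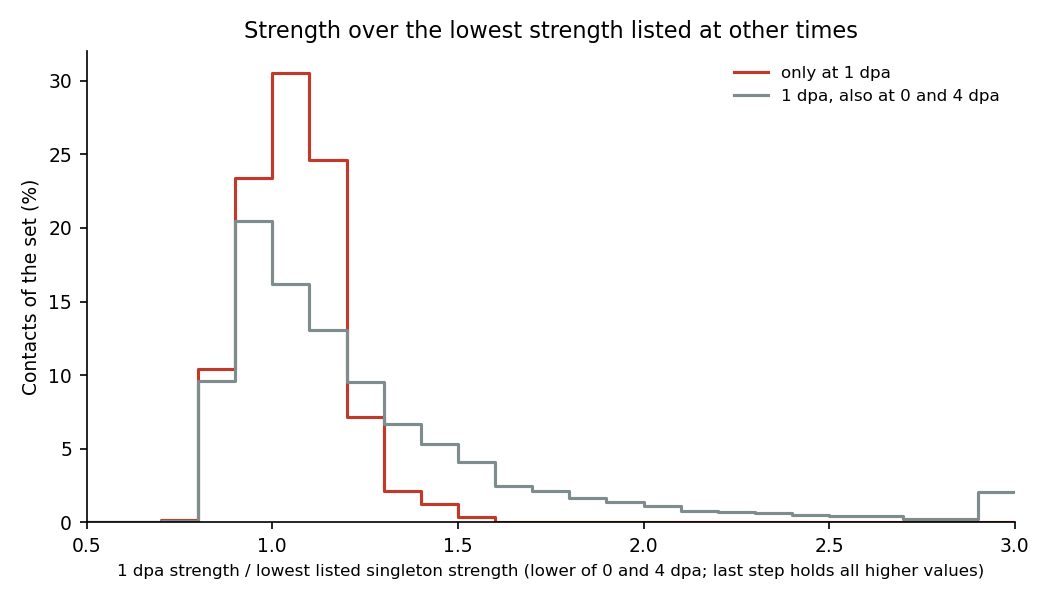
Strength of each 1 dpa contact divided by the lowest strength listed for a singleton of like expected count, taken at whichever of 0 and 4 dpa gives the lower ratio; lines give the percent of the set in steps of 0.1. The contacts called only at 1 dpa end at 1.59, while 7.18% of those with counterparts at both other times reach 2 or more.

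The 4 contacts that cleared the lowest listed strength by at least 1.5 times were picked out after their values were seen. The first joined chr10:42170001-42180000 to chr10:42350001-42360000. It had 23 counts, 8.25 times the expected 2.79 (5.23 to 12.4, exact Poisson interval), with an FDR of 5.34e-11, and lay in a cluster of 2 pairs. Neither bin had a contact at 0 or 4 dpa, and the nearest called pair at both times lay 90 kb away. Its strength was 1.59 times the lowest listed one.

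The second, a singleton, joined chr5:72060001-72070000 to chr5:72150001-72160000 with 34 counts, 5.36 times expected (3.71 to 7.49). Neither of its bins was in use at the other times. The nearest 0 dpa pair lay 50 kb away, with 39 counts at 2.68 times expected. The nearest 4 dpa pair lay 60 kb away and enclosed this contact, with 20 counts at 6.05 times expected. The third joined chr13:8160001-8170000 to chr13:8250001-8260000 with 28 counts, 6.26 times expected (4.16 to 9.04). Its left bin was in use at each time, and a pair from that bin to chr13:8230001-8240000, 20 kb short of the right anchor, had 24 counts at 0 dpa and 27 at 4 dpa. This neighbour had 4.65 and 4.10 times its expected count at 0 and 4 dpa. The fourth joined chr5:54410001-54420000 to chr5:54460001-54470000 with 41 counts, 4.78 times expected (3.43 to 6.49), in a cluster of 2 pairs. Its right bin was also in use at 4 dpa, in a pair from chr5:54440001-54450000 with 50 counts, 2.39 times expected. This nearest 4 dpa pair lay 30 kb away.

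Further contacts were named by rule as the 10 of highest strength among those with at least 20 counts, 1 per cluster. They held 20 to 28 counts at strengths of 5.76 to 8.25 and spanned 80 to 200 kb, and the contacts of chromosomes 10 and 13 given above are among them. A singleton on chromosome 25 joined 2340001-2350000 to 2500001-2510000 with 21 counts, 7.32 times expected (4.53 to 11.2). The nearest pair at both other times lay 50 kb away. At 0 dpa it had 14 counts and 5.52 times the expected count, and at 4 dpa 15 counts and 4.94 times.

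A contact on chromosome 6 joined 59740001-59750000 to 59940001-59950000 with 20 counts, 6.87 times expected (4.20 to 10.6). From the same left bin, a pair that ended 50 kb earlier had 25 counts at 0 dpa, 7.58 times expected, and 26 counts at 4 dpa, 7.26 times. This contact thus reached beyond one of higher strength that was called at both other times. On chromosome 20, 31560001-31570000 and 31740001-31750000 were joined by 22 counts, 6.32 times expected (3.96 to 9.57), in a broad cluster of 8 pairs. Its right bin had 6, 8 and 5 contacts at 0, 1 and 4 dpa. The pair 20 kb further out from the same right bin was 5.88 times expected at 0 dpa and 5.80 times at 4 dpa.

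A contact on chromosome 10 stood far from any other. It joined 34740001-34750000 to 34820001-34830000 as a singleton with 23 counts, 5.76 times expected (3.65 to 8.65). The nearest called pair lay 310 kb away at both 0 and 4 dpa, and neither bin had another contact in any list. A chromosome 15 singleton with ends at 43350001-43360000 and 43500001-43510000 had 23 counts, a strength of 6.52 (4.13 to 9.78). It enclosed the nearest pairs of 0 and 4 dpa, which were 4.04 and 4.53 times expected.

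The 5 contacts with the highest counts, also named by rule, all spanned 20 kb. The highest count, 67, joined chr3:40440001-40450000 to chr3:40460001-40470000 at 2.44 times the expected 27.5 (1.89 to 3.10). Between chr13:36730001-36740000 and chr13:36750001-36760000 there were 66 counts, 2.85 times expected (2.21 to 3.63). Of the 5, the contact between chr10:22160001-22170000 and chr10:22180001-22190000 was the strongest, with 65 counts, 3.40 times expected (2.62 to 4.33). Its FDR was 6.23e-13. Its bins had no other contact in any list, and the nearest pair lay 160 kb away at 0 dpa and 180 kb away at 4 dpa. High counts at this span go with a high expected count, and the 5 strengths lay between 2.44 and 3.40.

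Contacts of few counts at an expected count near 1 had the highest strengths of all. They were picked out after their values were seen. The contact between chr15:41310001-41320000 and chr15:41490001-41500000 had 17 counts and was 12.7 times the expected 1.33 (7.42 to 20.4). A further 2 contacts at the same place, from 41350001 to 41470001 and to 41490001, had 13 and 12 counts. Beside them, 30 kb away from the first, a pair between 41320001-41330000 and 41520001-41530000 was called at both other times, at 19.3 times expected in 0 dpa and 19.9 times in 4 dpa fins. The new calls there stood next to a stronger one that was not new. On chromosome 1, the contact between 56990001-57000000 and 57190001-57200000 had 12 counts, 9.75 times expected (5.04 to 17.0). A pair 20 kb longer from the same right bin was 11.3 times expected at 0 dpa and 18.7 times at 4 dpa. On chromosome 9, the contact between 52320001-52330000 and 52360001-52370000 had 16 counts at a span of 40 kb. Its expected count of 1.28 was the lowest of all 216 contacts of 30 to 50 kb, whose median was 9.60. On chromosome 5, the contact between 62640001-62650000 and 62690001-62700000 had 17 counts at an expected 1.38.

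The distance from each contact to the nearest other one called only at 1 dpa was taken between midpoints. It was within 50 kb for 507 of them (47.6%, 44.6 to 50.7), but most of these neighbours were pairs of the same cluster. Without pairs of the same cluster it was within 50 kb for 160, within 100 kb for 243 (22.8%) and within 500 kb for 571 (53.6%). These shares were not set against those of other contacts. They occupied 594 windows of 1 Mb, of which 317 held 1 contact and 8 held 6 or more. Windows are named by their values. With a minimum of 5 contacts per window, used at first, the highest share lay on chromosome 15 from 15000001 to 16000000, where 5 of the 6 contacts of at most 200 kb were called only at 1 dpa. They were spread from 15010001 to 15630000, spanned 20 to 110 kb and had 18 to 28 counts at 2.63 to 3.87 times expected. The minimum was raised to 6 after a map of that window had been seen, so the chromosome 1 group that follows was chosen with both in view.

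The window with 6 or more in which they made up the largest share lay on chromosome 1, from 23000001 to 24000000. It held 9 contacts of at most 200 kb at 1 dpa, of which 6 were called only then, while 10 were listed at 0 dpa and 8 at 4 dpa. All 6 lay between 23730001 and 23880000. Of these, 4 spanned 20 kb, with 37, 60, 49 and 48 counts at 3.25, 2.90, 2.52 and 2.94 times expected. The other 2 ran from 23740001-23750000 and 23750001-23760000 to the bin at 23840001-23850000, with 19 and 16 counts at 3.26 and 3.84 times expected. That bin was also the right end of a 220 kb contact from 23620001-23630000. This longer contact had 20 counts at 0 dpa, 6.18 times expected, and 15 counts at 1 dpa, 4.93 times expected. It was not in the 4 dpa list, where the bin was joined to 23660001-23670000 with 19 counts, 4.83 times expected.

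At 0 dpa the nearest pair to each of the 6 lay 110 to 230 kb away. At 4 dpa it lay 20 to 140 kb away. The closest 4 dpa pair joined 23710001-23720000 to 23730001-23740000 with 64 counts, 3.16 times expected, and ended in the bin where the first of the 6 began. The map of this locus shows 3 of the 4 short contacts of 1 dpa within the longer one and the fourth beyond its right anchor. It shows no short contact there at 0 dpa, and at 4 dpa 2 short contacts that start to the left of the group of 6.

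**Figure D4:**
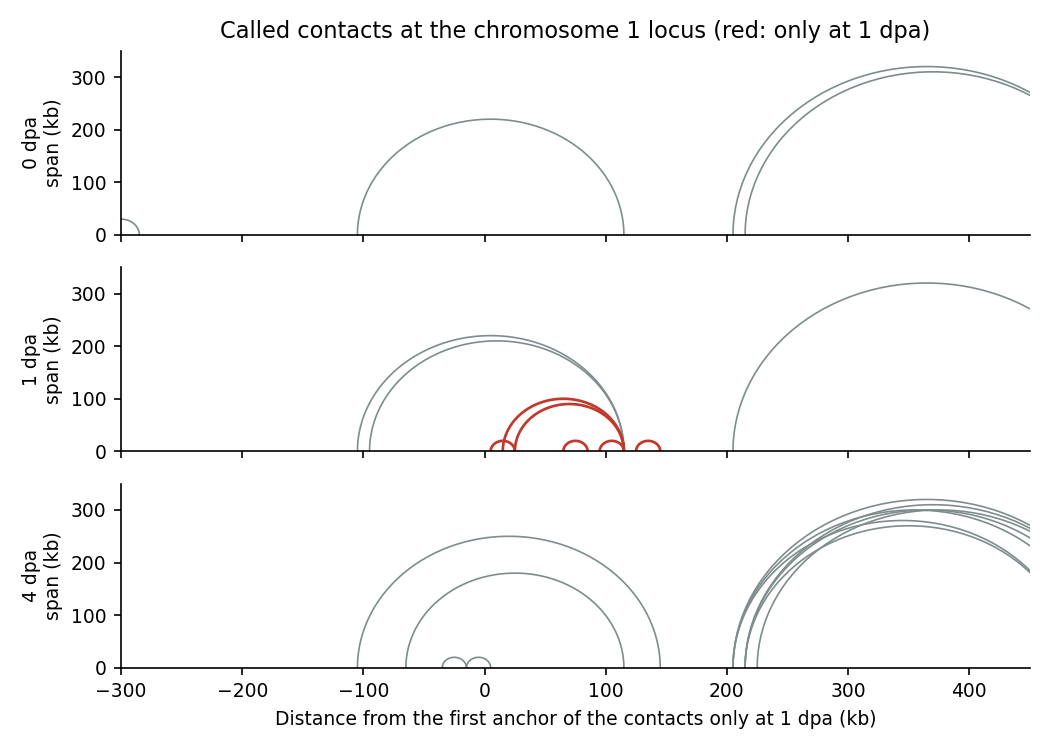
Called contacts of at most 1 Mb around the chromosome 1 group, at 0, 1 and 4 dpa from top to bottom. The horizontal axis gives the distance in kb from the first anchor of the group and each arch joins 2 anchor bins, with its height equal to its span in kb. The 6 contacts called only at 1 dpa (red) lie between 0 and 150 kb.

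A second group lay on chromosome 7, where adjoining windows from 26000001 to 28000000 held 6 contacts each. In the right window they were 6 of the 10 contacts at 1 dpa, and 17 and 15 contacts were listed at 0 and 4 dpa. Of these, 4 joined the bins at 27240001 and 27250001 to those at 27350001 and 27370001, with 20 to 25 counts at 3.21 to 4.12 times expected. Their nearest pairs lay 50 to 70 kb away at 0 dpa and 30 to 50 kb away at 4 dpa. The window with the most such contacts, 7 of 33, lay on chromosome 5 from 32000001 to 33000000. There 3 contacts ended in the bin at 32660001-32670000, and a singleton from 32530001-32540000 to 32730001-32740000 was 5.25 times expected with 21 counts. All 7 lay within 50 kb of a 0 dpa pair.

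On chromosome 6, a pair of contacts from the bin at 28480001-28490000 ran to 28670001-28680000 and to 28680001-28690000. They had 22 and 21 counts at 4.81 and 5.37 times expected, and the nearest pair at both other times lay 190 kb away.

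The cluster with the most of these contacts lay on chromosome 13, with 4 of its 5 pairs. They joined bins from 27060001 to 27080001 to bins from 27130001 to 27150001. The summit, from 27070001-27080000 to 27140001-27150000, had 34 counts, 3.41 times expected, at an FDR of 2.85e-06. The fifth pair, next to the summit, had 25 counts at 3.39 times expected and a counterpart at 0 dpa alone. In this cluster the contacts thus bordered on a pair with a 0 dpa pair within 10 kb. The 0 dpa list did not hold that same pair of bins, since the summit would then have had a counterpart too.

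On chromosome 20, a cluster of 10 pairs ran as a stripe from the bins at 37700001 to 37720001 towards the left. Its pairs of 120, 110 and 100 kb were called only at 1 dpa, with 22, 17 and 17 counts at 3.50, 3.27 and 3.31 times expected. Its other 7 pairs, shorter and longer ones, had counterparts at both other times. The 3 contacts thus filled the middle of a stripe whose other pairs had a pair within 10 kb in each other list. Of the 3 contacts, 2 had FDRs of 0.00983 and 0.00868, close to the limit of 0.01.

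Clusters without any counterpart were small. On chromosome 2, 3 pairs joined the bin at 19920001-19930000 to 19880001, 19890001 and 19900001 with 26, 32 and 23 counts at 3.27, 3.67 and 3.04 times expected. On chromosome 4, 3 pairs between 15000001 and 15060000 had 27, 56 and 28 counts at 2.60, 2.49 and 2.51 times expected. A second chromosome 4 cluster, from 26550001, held 3 such contacts with 24, 32 and 25 counts. Its 2 further pairs, the summit of 40 counts included, had a counterpart at 4 dpa and none at 0 dpa. The 4 dpa list thus held a pair within 10 kb of the summit. It did not hold the summit's own pair of bins, since a neighbour in the cluster would then have had a counterpart too.

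Few anchors collected several of the contacts. Of the 1920 bins, 1726 held 1 contact, 179 held 2, 14 held 3 and 1 held 4. Ties at 3 were settled by the higher summed count. The bin with 4 was chr23:33550001-33560000, with 3, 8 and 5 called partners at 0, 1 and 4 dpa. Its contacts only at 1 dpa ran to the left over 60, 70 and 80 kb, with 30, 21 and 22 counts at 3.55, 2.87 and 2.87 times expected, and to the right over 30 kb with 46 counts, 2.50 times expected. Its strongest partner at 0 and 1 dpa was 33610001-33620000, with 33 and 41 counts at 3.99 and 4.81 times expected. At 4 dpa this pair had 53 counts, 5.09 times expected, and the partner at 33450001-33460000 was at 5.40. The bin thus kept its main right partner in all lists while left partners 60 to 80 kb away were listed at 1 dpa alone.

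The bin chr12:17010001-17020000 was in use at 1 dpa alone. Its 3 contacts ran 30 and 20 kb to the left and 20 kb to the right, with 49, 52 and 36 counts at 2.93, 2.71 and 2.78 times expected. The bin chr7:68420001-68430000 had its listed partners on different sides. At 1 dpa its 3 partners all lay to the right, 20, 30 and 40 kb away, with 38, 33 and 36 counts at 2.26, 2.84 and 2.34 times expected. Their FDRs were 0.00427, 0.000189 and 0.00346, each above the limit for singletons. Pairs on the left have no value at 1 dpa, so their loss is not shown. At 0 dpa its 2 partners lay 60 and 20 kb to the left, with 37 and 55 counts at 2.99 and 2.39 times expected, and at 4 dpa its 1 partner was the 20 kb one on the left, with 62 counts at 2.35 times.

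By position along chromosomes the contacts did not stand apart at the ends. Within 2 Mb of the chromosome start or of the last listed base lay 58 of them (5.45%, 4.16 to 6.98), against 5.27% of contacts with both counterparts. They lay inside a longer contact of at most 1 Mb, by at least 20 kb on each side, in 33.9% (31.1 to 36.8) for the 0 dpa list, 31.3% for the 1 dpa list and 40.2% (37.2 to 43.2) for the 4 dpa list. For contacts with both counterparts these shares were 30.8%, 28.1% and 33.2%. Shorter contacts fit more easily inside others, and this was not allowed for.

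The share of contacts called only at 1 dpa ran from 4.76% on chromosome 3 (3.45 to 6.38) to 8.99% on chromosome 10 (6.53 to 12.0). In number they ran from 26 of 436 contacts on chromosome 25 to 84 of 1021 on chromosome 7. Per length, chromosome 4 had the fewest, 0.474 per Mb of listed sequence, and chromosome 7 the most, 1.13 per Mb. As shares of the 1 dpa contacts these were 5.59% (3.97 to 7.62) on chromosome 4 and 8.23% (6.62 to 10.1) on chromosome 7. Both intervals held the 6.86% of the whole list, so no density particular to these contacts was shown. The extremes of 25 chromosomes are given, and chromosomes share the pools of a list, so they are not replicates. For contacts only at 0 dpa the shares on chromosomes 3 and 10 were 18.1% and 18.6%, and for contacts only at 4 dpa they were 13.3% and 18.3%. Chromosome 3 lay below chromosome 10 in each list, but the 0 dpa difference was small. The 0 dpa shares of all chromosomes ran from 11.1% on chromosome 22 to 22.8% on chromosome 14. No pattern across the lists was thus shown.

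**Figure D5:**
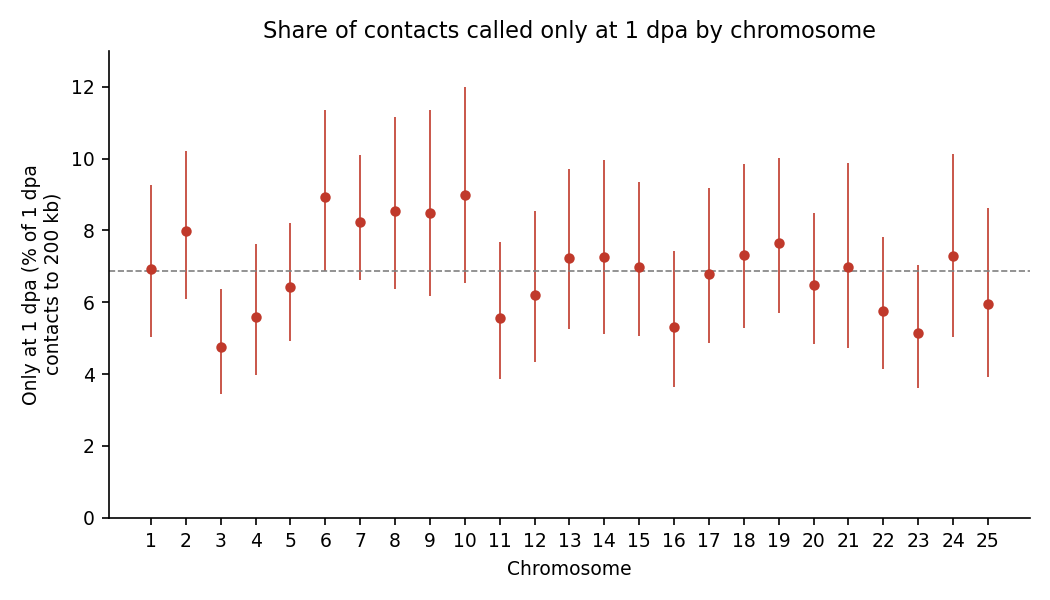
Contacts called only at 1 dpa in percent of all 1 dpa contacts of at most 200 kb, by chromosome (points; lines, exact binomial 95% intervals). The dashed line is the value over all chromosomes, 6.86%; chromosome 3 lies lowest at 4.76% and chromosome 10 highest at 8.99%.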

How the data were processed

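HiCAR was run on 9 samples, 3 pools of fins at each of 0, 1 and 4 dpa, and 1 list of called pairs per time point was used. Per the file headers, each row gives a pair of 10 kb bins with the authors' contact count, expected count, FDR (a q-value) and cluster; the deposited −log10 p of a cluster served only to break ties between clusters. Each list was tied to its time point by its name, which matches the sample titles. Per the submitters' processing notes, BWA and danRer11 were used. No source used here names the interaction caller or says how pools were combined. Every listed pair had an FDR under 0.01, 12 or more counts, and a count at least 2 times the expected one. The counts at called pairs summed to 909221, 562191 and 861126 at 0, 1 and 4 dpa. Sequencing depth is unknown.

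From the lists, counterparts, nearest pairs, anchor use and the lowest listed strength were computed with Python 3.11.15 and pandas 2.3.3, after a test of the matching on simulated lists. No test between time points was run. Shares have exact binomial, counts over expected exact Poisson, and medians order-statistic intervals from scipy 1.17.1, and they cover counting error alone. The contacts, lists and rules were chosen with earlier results of these data known. Contacts were named as the 10 strongest with at least 20 counts and the 5 with the highest counts (1 per cluster each), the 5 clusters and the 3 anchor bins with the most of them; others are marked as picked after their values were seen. Gene lists, gene starts and motifs had been planned and were not run, since no danRer11 annotation or sequence was used here. Positions are 1-based in danRer11.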

Additional observations from a re-analysis of the deposited data

How the results depend on the processing

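No paired analysis was possible because the lists give 1 value per time point, and for the same reason no replicate could be left out. Alternatives changed the selection itself, so its size moved. With identical bins required, 2936 contacts (18.9% of those to 200 kb) were called only at 1 dpa, with a median strength of 3.32. Their median span of 60 kb equalled that of the whole 1 dpa list to 200 kb, so the short span was no longer seen. Then 40.4% belonged to whole clusters without counterpart and 50.2% had both bins in use at 0 or 4 dpa. With anchors within 20 kb, 717 were left; the share was 4.62% and these last values 95.4% and 19.4%, while the medians stayed within their intervals. At an FDR of at most 0.0001 there were 659, with a strength of 3.37, a span of 20 kb and 97.1% in whole clusters. At a count of at least 20 the strength was 3.05, the span 20 kb, and the cluster and anchor shares 91.4% and 24.7%. Without singletons 498 were left (3.86%), with a strength of 3.08, a span of 40 kb and 75.9% in whole clusters. The other cluster shares count each singleton as a whole cluster. With summits alone the share was 12.7%, the strength 3.31, the span 20 kb and the cluster share 96.4%. With the other lists shortened to the 1 dpa length the share was 9.69%, the span 40 kb and the cluster share 83.9%. Without a span limit the strength was 3.45 and the span 40 kb. Of 48 values under these 8 alternatives, 31 moved beyond the counting interval, or 1.5 times for the number. Chosen after the data were seen, the limit of 1.2 times the lowest listed strength was passed by 164 contacts with singletons within 10% of the expected count, by 95 within 2% and by 87 with the expected count unscaled, against 116 as reported. A limit of 1.25 had been used first and was lowered to 1.2 for the way numbers are written, not for its result, with the counts known. At 1.25 there were 65, with 104, 53 and 55 under the same alternatives. Gene starts and motifs were not run.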
